A study of Mus musculus with 24 samples.

Results

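Heat shock proteins and cytosolic chaperones were followed across all 8 groups of a mouse study of the ventromedial hypothalamus (VMH), a nucleus of the hypothalamus with a role in energy balance, and of brown adipose tissue (BAT), the thermogenic fat. Members were taken by gene symbol: the heat shock proteins (Hsp, Hspa to Hsph), the J proteins (Dnaja, Dnajb, Dnajc), the heat shock factors, the subunits of the chaperonin CCT (Cct2 to Cct8 and Tcp1), the BAG proteins and the cofactors Stip1, Ahsa1, Ptges3 and Hspbp1. The endoplasmic reticulum chaperones Hspa5, Hsp90b1, Dnajb9, Dnajb11 and Dnajc3 and 10 pseudogenes were left out. Members were not screened further by cell compartment, so others, such as Dnajc1 and Dnajc10, need not be cytosolic. This gave 84 members of 30142 genes with a single symbol, of which 67 in VMH and 75 in BAT passed a filter on low values and were tested. Hspg2, the basement membrane proteoglycan perlecan, is a member by its symbol only. Cct6a, Dnaja1, Dnajc19 and Hspa1b matched only features annotated to several genes and have no value of their own; Hsf1 and Hsp90ab1 were not analysed here.

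Each tissue had 4 groups of 3 arrays: control mice on standard diet (SD), Gfap-Bmal1 cKO mice on SD, control mice on high fat diet (HFD) and Gfap-Bmal1 cKO mice on HFD, with 16 weeks of diet in every group. The cKO mice carry a conditional deletion of Bmal1, a core transcription factor of the circadian clock, directed by Gfap, a gene of astrocytes. Array titles call the controls WT and the cKO mice KO. The Cre line, the deleted part of the gene, the alleles carried by the controls and the age are not stated in the labels. RNA came from VMH dissected out of 100 µm brain sections and from 20 mg of BAT. Nothing in the labels says whether each array is its own animal, so the p-values describe the spread among the arrays at hand, part or all of which may be technical.

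Chaperones bind unfolded or partly folded proteins and keep them from aggregating. HSP70 proteins work in cycles of ATP hydrolysis in which J proteins deliver the client and stimulate hydrolysis, nucleotide exchange factors such as the BAG and HSP110 proteins release it, and Stip1 passes some clients on to HSP90; CCT is a barrel that folds actin and tubulin, and small heat shock proteins hold clients without ATP. Under heat or proteotoxic stress the factor HSF1 binds heat shock elements, inverted repeats of a short unit, and raises a subset of these genes within minutes to hours. In brown adipocytes, rich in mitochondria, the mitochondrial chaperones are abundant, and in muscle several small heat shock proteins and Bag3 serve the contractile apparatus.

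Promoters of members were searched for exact matches to the element that HSF1 recognises. Such a search does not decide which genes HSF1 binds. For the genes the results turn on, 3 are printed here. The windows run from 250 bases before to 50 bases after the annotated start, are from RefSeq on GRCm38.p6 and are written 5′ to 3′ on the gene's strand. Capitals mark matches to the heat shock element of 2 inverted units, GAANNTTC or TTCNNGAA, each of which is its own reverse complement, so that a search covers both strands; where a match of one form shares 3 bases with a match of the other, the element has 3 units. Hspe1 (HSP10, the lid of the mitochondrial HSP60 chamber) and Hsph1 (an HSP110 exchange factor) are shown as inducible members with 3-unit elements. Hspe1 holds 2 that overlap and Hsph1 holds 1. Bag3 (an exchange factor that directs clients to autophagy) is shown because it was the one member called in VMH, a choice made after its value was seen. The Hspe1 window is chr1:55087898-55088197 on the + strand, the Hsph1 window chr5:149636266-149636565 on the - strand and the Bag3 window chr7:128523333-128523632 on the + strand.
Hspe1: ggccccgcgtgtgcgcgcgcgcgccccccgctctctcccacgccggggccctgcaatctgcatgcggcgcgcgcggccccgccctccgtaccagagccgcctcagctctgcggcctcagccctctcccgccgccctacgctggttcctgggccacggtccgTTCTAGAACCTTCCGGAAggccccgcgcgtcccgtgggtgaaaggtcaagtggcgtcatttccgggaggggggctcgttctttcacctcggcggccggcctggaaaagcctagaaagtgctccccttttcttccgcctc
Hsph1: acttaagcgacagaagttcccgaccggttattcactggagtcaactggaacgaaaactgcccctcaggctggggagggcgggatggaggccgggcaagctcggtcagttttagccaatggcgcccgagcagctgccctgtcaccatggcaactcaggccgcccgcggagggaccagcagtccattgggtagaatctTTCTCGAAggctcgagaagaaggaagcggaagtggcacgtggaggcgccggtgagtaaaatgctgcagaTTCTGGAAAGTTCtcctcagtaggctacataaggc
Bag3: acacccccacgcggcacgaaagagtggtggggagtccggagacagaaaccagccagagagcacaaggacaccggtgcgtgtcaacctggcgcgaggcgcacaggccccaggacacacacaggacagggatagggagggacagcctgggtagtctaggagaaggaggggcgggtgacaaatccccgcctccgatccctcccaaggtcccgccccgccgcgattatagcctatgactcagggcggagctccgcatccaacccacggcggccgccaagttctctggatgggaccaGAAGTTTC

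Counted with the annotated start as 1, the matches began at -89, -84 and -79 in Hspe1, at -54, 16 and 21 in Hsph1 and at 43 in Bag3. The window of Hspd1 (HSP60) lies on the opposite strand and shares 285 bases with that of Hspe1, so the same 3 matches stand in both. RefSeq windows were found for 69 of the 84 members. A 2-unit match stood in 26.1% of those 69 genes, beside 17% of all 27025 genes with a window, and a 3-unit element in 5.8% (Dnajb6, Hspd1, Hspe1 and Hsph1), beside 0.662% of all. The E-box CACGTG, the site BMAL1 binds with CLOCK and its own reverse complement, stood in 8.7% of the members and 8.09% of all genes. Of 11 stress-inducible members with a window, 7 had a 2-unit match, and Ahsa1, Dnajb1, Hspa4l and Stip1 had none. A match is a description of letters in a window, not of a bound site.

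The deposited values are log2 signals; a difference of 1 is a doubling of the linear signal. The median signal of an array was 5.482 to 5.572 in VMH and 4.069 to 4.157 in BAT, the number of arrays limits the precision, and tissues were compared only through their own differences. The targeted gene, Bmal1 (Arntl), did not read lower under the label cKO: its VMH signals were 8.58, 8.80 and 8.49 in controls and 8.93, 9.26 and 9.32 in cKO on SD, and 9.22, 8.83 and 8.80 against 9.54, 8.99 and 9.04 on HFD. This feature checks the genotype only if it lies in the deleted part, and a deletion directed by Gfap leaves the gene in other cells; cKO below names the label. Gfap read 10.34 to 13.26 in VMH and 3.47 to 3.63 in BAT, where it was below the filter. In BAT 3 arrays had lower Ucp1, the thermogenic uncoupling protein, than the rest, which sat at the ceiling of the scale at 19.93: control SD 1 at 8.87, cKO SD 2 at 16.30 and cKO SD 3 at 19.31. In the same tissue the mean of 20 skeletal muscle markers ran from 5.82 to 17.44 between arrays.

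Hspa8, the constitutive HSP70, cannot be compared: each of the 4 features annotated to it alone read between 19.91 and 19.92 in all VMH arrays and reached 19.93 in BAT, at or next to the ceiling. Features annotated to Hspa8 together with other genes were not used. The 4 used may read pseudogenes of Hspa8, which was not tested. Between arrays of a group the members spread about as much as other genes, with a median within-group SD of 0.0973 in VMH (0.120 over all genes tested) and 0.254 in BAT (0.231 over all genes). In BAT the largest within-group SDs were those of Hspb7 (3.32) and Hspa1a (2.17), and the smallest that of Dnajc17 (0.0770).

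Bag3 rose in the VMH arrays labelled cKO. Its signals in controls on SD were 5.77, 5.99 and 6.14, against 6.28, 6.43 and 6.27 in cKO mice. On HFD they were 6.02, 5.80 and 5.65 in controls and 6.34, 6.33 and 6.45 in cKO mice. All 6 cKO arrays lay above all 6 control arrays, on a probe whose signal was between 5.65 and 6.45, not far above the array medians. Averaged over diets the difference was 0.46 on the log2 scale (SE 0.0778, 95% interval 0.284 to 0.628; limma, Benjamini-Hochberg adjusted p = 0.0233). It was 0.36 on SD (adjusted p = 0.547) and 0.55 on HFD (adjusted p = 0.0849), and the difference between these, 0.19, did not pass (adjusted p = 0.918). In bulk tissue, a change in the share of cells of a type and a change of RNA per cell cannot be told apart.

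The call on Bag3 rests on few arrays: it was lost (adjusted p up to 0.0829) when any of 8 of the 12 arrays was left out, namely control SD 2, cKO SD 2 and 3, control HFD 2 and 3, and cKO HFD 1, 2 and 3, while the difference stayed between 0.41 and 0.51. Over all alternatives its adjusted p ranged from 0.00891 to 0.0829.

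Markers of several cell types are given beside Bag3 for the same comparison; their part in its difference was not tested. Gfap, the filament protein of astrocytes, read 10.34, 11.54 and 12.46 in controls and 12.77, 13.26 and 12.91 in cKO mice on SD, and 10.90, 11.43 and 11.65 against 12.02, 13.00 and 12.23 on HFD. Of 11 astrocyte markers, 1 rose averaged over diets, the water channel Aqp4 (0.48, adjusted p = 0.0493), and 7 differences were positive. Over all genes 60.38% of the differences averaged over diets were above 0. The mean of the list ran from 9.91 to 10.43 in controls and from 10.27 to 10.51 in cKO mice on SD, and from 10.11 to 10.26 against 10.26 to 10.38 on HFD. Of 15 oligodendrocyte markers 0 passed in limma, with 12 differences below 0 and a median of -0.54. Of 13 neuron markers 1 rose, Stmn2, a tubulin-binding protein of growing axons (0.80, adjusted p = 1.934e-05), and 9 were above 0 with a median of 0.023. Of 11 endothelial and mural markers 10 were below 0 (median -0.080), and all 6 tested markers of choroid plexus, ependyma and pituitary were above 0 (median 0.37), with 0 of either list called in limma. The mean of the latter list was 9.74 on array cKO HFD 2. It was 6.06 and 6.43 on the other cKO HFD arrays and 6.03 to 6.54 in controls on HFD.

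Bag3 was the single member called in VMH in any comparison. In cKO against control, 1 of 67 members passed averaged over diets (background 0.615% of 16738 genes), 0 on SD (background 0.263%) and 0 on HFD (background 0.287%) in limma. At an unadjusted p under 0.05 there were 3 members in each of the 3 comparisons, of 1882, 1116 and 1865 genes. The median member difference was 0.036 averaged over diets, beside 0.023 over all genes, and 0.020 without array cKO HFD 2. Arrays of cKO and control mice did not overlap for 7 members on SD, 10.4% beside 9.94% of all genes: Bag3, Cct4, Cct8, Dnajc7, Dnajc8, Dnajc10 and Hspb11, all higher in cKO. On HFD they did not overlap for 6 members, 8.96% beside 19.9% of all genes, with Bag3, Dnajc16, Hspb11 and Hspbp1 higher and Dnajc1 and Dnajc14 lower.

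By role, the small differences in VMH had no common size. The 8 CCT subunits tested were each above 0 averaged over diets, from 0.0042 to 0.23 with a median of 0.057, and none passed. The 5 small heat shock proteins were also above 0, with a median of 0.10. In this comparison 60.38% of all genes were above 0. Hspb11, a protein of intraflagellar transport despite its name, had the next highest statistic after Bag3: its signals were 7.54, 7.59 and 7.40 against 7.69, 7.78 and 7.66 on SD and 7.67, 7.65 and 7.51 against 7.70, 7.76 and 7.70 on HFD. Its difference was 0.16 (adjusted p = 0.266). Bag2, an inhibitor of the ubiquitin ligase CHIP, differed by 0.14 (adjusted p = 0.410). The lowest statistics were those of Dnajc1, Dnajc13 and Dnajc27, between -0.062 and -0.054 (adjusted p of 0.735 to 0.790). Hsf2, a heat shock factor, differed by 0.0069 on SD and -0.0096 on HFD, and Hspb1 (HSP27) by 0.048 and 0.16, both within the spread of their arrays. Dnajb1, the main inducible J protein, differed by -0.085 and 0.11, also within that spread. The stress-inducible members as a list of 12 tested genes had a median of -0.0072, with 5 differences above and 6 below 0.

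In the comparison of diets, no member passed in VMH and few genes did: 0 of 67 in controls (background 0% of all genes), 0 in cKO (background 0.00597%) and 0 averaged over genotypes (background 0.0119%), in limma with Benjamini-Hochberg adjustment. The comparison averaged over genotypes was added after seeing the data. At an unadjusted p under 0.05 there were 5 members in controls, 7 in cKO and 11 averaged, of 1403, 1591 and 2115 genes.

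Averaged over genotypes the highest statistics were those of Hsph1 and Stip1, both of the stress-inducible list, and Dnaja2, which is not. Hsph1 read 14.43, 14.62 and 14.15 in controls on SD and 14.94, 14.65 and 14.70 on HFD. In cKO mice it read 14.35, 14.14 and 14.32 on SD and 14.85, 15.02 and 14.64 on HFD. The diets did not overlap in either genotype. The difference was 0.36 in controls (adjusted p = 0.524), 0.57 in cKO (0.225) and 0.47 averaged (SE 0.0947, adjusted p = 0.171). Stip1, the adaptor between HSP70 and HSP90, read 13.71, 14.11 and 13.76 against 14.26, 13.83 and 14.17 in controls, where the diets overlapped. In cKO it read 13.69, 13.72 and 13.72 on SD and 14.12, 14.36 and 14.31 on HFD, with no overlap, and a difference of 0.55 (SE 0.128, adjusted p = 0.225). Hsp90aa1, the inducible cytosolic HSP90, read 16.68, 16.87 and 16.72 against 17.00, 16.80 and 16.87 in controls. In cKO its signals were 16.82, 16.55 and 16.70 on SD and 16.93, 16.97 and 16.88 on HFD, a difference of 0.24 (adjusted p = 0.406). Dnaja2, a cytosolic J protein, had the highest statistic in controls, at 12.87, 12.87 and 12.94 on SD and 13.13, 13.09 and 13.08 on HFD (0.20, adjusted p = 0.436).

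**Figure D1:**
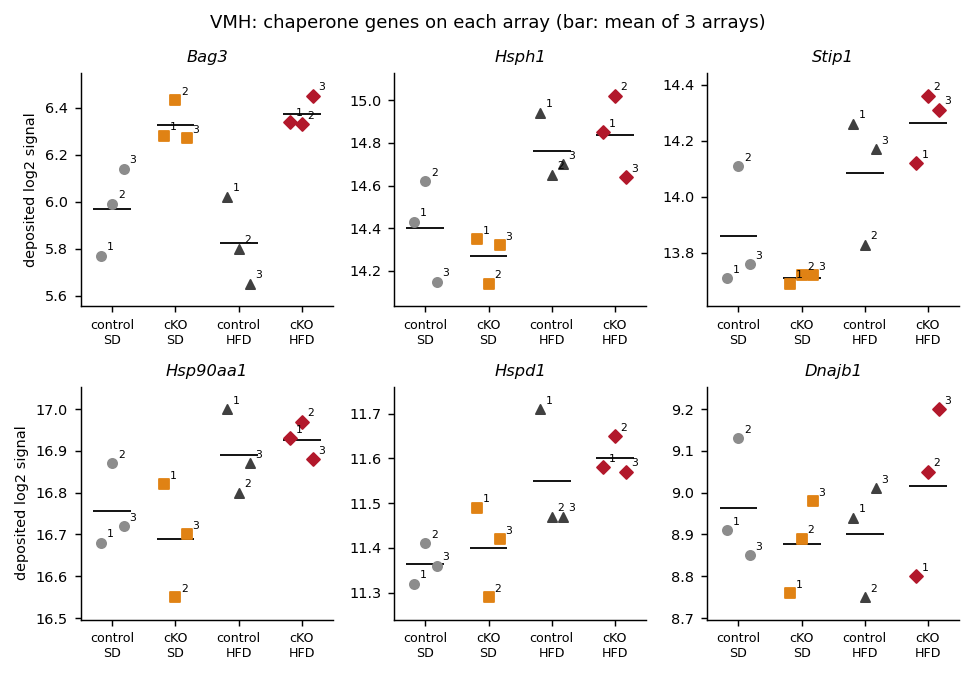
Deposited log2 signal (vertical axis) of Bag3, Hsph1, Stip1, Hsp90aa1, Hspd1 and Dnajb1 on each VMH array, by group (horizontal axis); numbers are the replicate numbers of the labels and bars are means of 3 arrays. The 6 cKO arrays of Bag3 lie between 6.27 and 6.45 and the 6 control arrays between 5.65 and 6.14, while Hsph1 is higher on HFD than on SD in both genotypes without passing the test.

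Arrays of the diets did not overlap for 16 members in cKO, 23.9% beside 17.5% of all genes, 11 of them higher on HFD: Hsph1, Stip1, Hsp90aa1, Hspd1, Hspa4, Hspa4l, Ptges3, Cct3, Dnaja4, Dnajb5 and Dnajc6. Dnajc8, Dnajc10, Dnajc13, Dnajc14 and Dnajc24 were lower. In controls they did not overlap for 6 members, 8.96% beside 12.4% of all genes, with Cct4, Dnaja2, Hspa12a, Hspd1 and Hsph1 higher and Dnajc12 lower. The 2 comparisons use different arrays. The interaction of genotype and diet passed for 0 of 67 members (background 0% of all genes) in limma, with 1 member and 944 genes at an unadjusted p under 0.05. The highest statistic was that of Hspbp1, an HSP70 exchange factor (0.35, adjusted p = 0.842), and the lowest that of Dnajc10, a J protein that also reduces disulfides (-0.21, adjusted p = 0.867).

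One array stood apart in the cKO group on HFD: on replicate 2 the mean of 9 markers of choroid plexus, ependyma and pituitary was 9.74, against 6.01 to 6.54 on the other 11 VMH arrays. Without it Hsph1 differed by 0.48 (adjusted p = 0.636) and Stip1 by 0.50 (adjusted p = 0.624) between diets in cKO. Of the stress-inducible members tested, 11 were above 0 in cKO with a median of 0.16, and Hspa8 at the ceiling was the 12th. Between diets in cKO, 59.24% of all genes were above 0 with all arrays used. Hspa1a, the inducible HSP70, was below the filter in VMH. Its signals ran from 4.98 to 5.31 on SD and from 5.21 to 5.60 on HFD, near background on these arrays.

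The BAT arrays differed widely in tissue markers, and many members differed with them. The part of tissue makeup in the BAT results was not tested. A fit with the muscle score as covariate is given below. That score went largely with diet, so the fit cannot tell the 2 apart. The mean of the 20 muscle markers was 17.44, 5.85 and 16.42 in controls and 14.61, 17.29 and 16.60 in cKO mice on SD. On HFD it was 7.01, 5.87 and 9.53 in controls and 5.82, 10.28 and 12.83 in cKO mice. Muscle markers were thus high in 5 of 6 SD arrays and lower in all HFD arrays, with control SD 2 among the lowest. Averaged over genotypes, where 17.6% of all genes were called, 7 of the 20 fell on HFD, with a median of -6.48. Of other lists, 6 of 12 macrophage markers and 6 of 11 endothelial and mural markers rose, and 0 of 11 brown adipocyte markers passed in limma with a median of 1.08.

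Some small heat shock proteins showed this most plainly. Hspb7, a small heat shock protein of heart and skeletal muscle, read 13.63, 3.99 and 14.53 in controls and 12.91, 14.86 and 14.78 in cKO mice on SD. On HFD it read 4.05, 3.87 and 5.02 in controls and 3.93, 7.30 and 9.70 in cKO mice. The low SD array is control SD 2, the one with low muscle markers. Hspb6 (HSP20) read 10.09, 6.97 and 9.81, then 9.15, 10.02 and 10 on SD, and 6.99, 7.11 and 7.31, then 6.93, 7.59 and 9.44 on HFD, controls first. Bag3, which in muscle works with Hspb8 at the Z-disc, read 10.10, 8.18 and 9.61, then 8.65, 11.23 and 11.10 on SD, and 8.29, 8.77 and 8.77, then 8.41, 10.30 and 9.35 on HFD. On cKO SD 1, with high muscle markers, Bag3 was lower than on cKO HFD 2, and Hspb8 did not follow the markers either, at 9.78 on cKO SD 1 and 11.56 on control SD 2. Hsf2 read 9.38, 7.26 and 8.92, then 7.96, 9.54 and 9.43 on SD, and stood between 7.38 and 8.05 on HFD. Its 4 highest arrays were the 4 with the highest muscle markers.

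**Figure D2:**
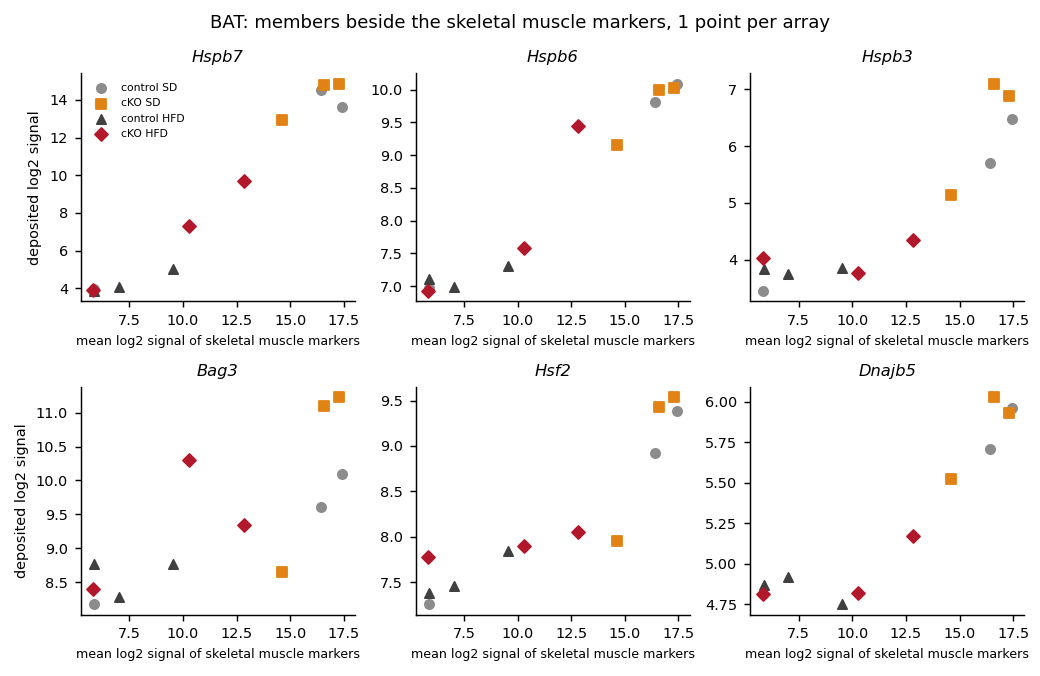
Deposited log2 signal (vertical axis) of Hspb7, Hspb6, Hspb3, Bag3, Hsf2 and Dnajb5 on the 12 BAT arrays against the mean log2 signal of 20 skeletal muscle markers (horizontal axis), 1 point per array, by group. The array control SD 2 (marker mean 5.85) lies with the HFD arrays, at 3.99 for Hspb7.

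Mitochondrial chaperones were low where muscle markers were highest and brown adipocyte markers lowest. Hspd1 (HSP60) read 13.27, 15.30 and 14.64, then 15.22, 13.29 and 14.26 on SD, controls first, and between 15.12 and 15.59 on HFD. Hspa9 (mortalin, the mitochondrial HSP70) read 16.17, 18 and 17.40, then 17.91, 16.36 and 17.09 on SD, and between 17.91 and 18.18 on HFD. For both genes the lowest arrays were control SD 1 and cKO SD 2, which had the lowest brown adipocyte markers (10.34 and 11.70, against 13.16 to 14.89 elsewhere) and the highest muscle markers (17.44 and 17.29). Hspe1, Dnaja3 (a mitochondrial J protein) and Dnajc15 (a J protein of the mitochondrial import motor) were at their lowest in the same arrays, from 7.32 and 7.56, 9.91 and 9.86, and 10.80 and 10.98.

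**Figure D3:**
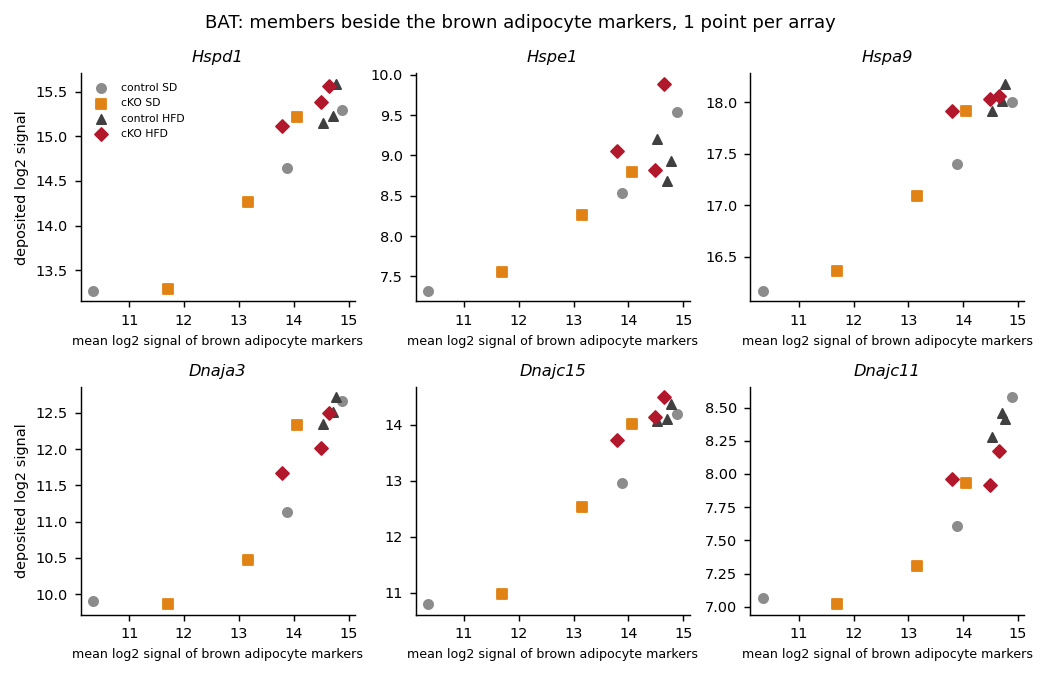
Deposited log2 signal (vertical axis) of the mitochondrial members Hspd1, Hspe1, Hspa9, Dnaja3, Dnajc15 and Dnajc11 on the 12 BAT arrays against the mean log2 signal of 11 brown adipocyte markers (horizontal axis), 1 point per array, by group. The arrays control SD 1 (marker mean 10.34) and cKO SD 2 (11.70) lie at the lower left.

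In BAT no member passed between cKO and control mice: 0 of 75 were called on SD, on HFD and averaged over diets (background 0% of 17800 genes in each), in limma with Benjamini-Hochberg adjustment. At an unadjusted p under 0.05 there were 0, 6 and 3 members, of 636, 1462 and 1539 genes. Arrays did not overlap for 2 members on SD, 2.67% beside 7.21% of all genes: Cct2 and Cct4, CCT subunits, both lower in cKO. On HFD they did not overlap for 12, 16% beside 19.5% of all genes, with Hsph1, Hspa13, Dnajb4, Dnajb14 and Cct8l1 higher and Hspa12b, Hspg2, Bag6, Dnajb12, Dnajc9, Dnajc11 and Dnajc18 lower. The median member difference was -0.068 on SD (-0.014 over all genes) and 0.099 on HFD (-0.012 over all genes), and -0.0073 on HFD without array cKO HFD 2. The interaction with diet passed for 0 of 75 (background 0%), with 5 members and 681 genes at an unadjusted p under 0.05.

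Hspa12b, a divergent HSP70 of endothelial cells, had the lowest statistic on HFD. It read 6.55, 7.09 and 6.81 in controls and 5.81, 6.03 and 6.08 in cKO mice, a difference of -0.84 (SE 0.169, adjusted p = 0.467). The endothelial genes Pecam1 and Cldn5 were also lower, at 10.31, 11.05 and 9.85 against 9.20, 9.02 and 8.98, and at 7.32, 7.81 and 6.52 against 5.89, 5.53 and 5.80. Of the 11 endothelial and mural markers 8 were below 0, with a median of -0.55, and 0 passed in limma. Over all genes 47.34% were above 0 in this comparison. The part of these markers was not tested. Hspg2, made by endothelial and other cells of basement membranes, differed by -1.06 (adjusted p = 0.505). The highest statistics on HFD were those of Ptges3 (p23, an HSP90 cofactor; 0.59), Dnajb14 (0.32) and Hsph1 (1.51), with adjusted p between 0.550 and 0.605. On SD the extremes were Cct2 (-0.31), Hspa13 (-0.32) and Hspa12b (-0.29) against Hspb3 (1.16), Dnaja4 (0.89) and Hspb7 (3.47, SE 2.47), each with an adjusted p of 0.984. Hspb3 and Hspb7 were high in the 5 arrays with high muscle markers, and Dnaja4 in 4 of them, with 8.28 on cKO SD 1.

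One array was high for most of the inducible genes. On cKO HFD 2, 8 of 12 stress-inducible members (Hspa8 left out) had their highest signal of the 12 BAT arrays, and the median gene of the 12 stood 1.56 above its own median over the other arrays. Hsph1 read 11.60, 11 and 11.92 in controls on HFD and 12.31, 14.61 and 12.12 in cKO mice. Hspb1 read 7.27, 7.35 and 7.07 against 6.95, 9.29 and 7.20. Dnajb1 read 8.57, 8.30 and 8.56 against 9.06, 9.98 and 8.43, so that the second array was the high one in each. Stip1 read 11.91, 11.60 and 12.18 against 11.91, 13.42 and 11.71, and Hspa4l, an HSP110 relative, 9.14, 8.84 and 9.55 against 10.01, 11.24 and 9.44.

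Hspa1a was high on 2 arrays of different diets. Its signals were 4.55, 4.56 and 5.12 in controls and 4.25, 5.93 and 10.14 in cKO mice on SD, and 3.93, 3.83 and 4.73 in controls and 5.65, 10.06 and 4.21 in cKO mice on HFD. The arrays cKO SD 3 and cKO HFD 2 stood above 10, followed by cKO SD 2 at 5.93 and cKO HFD 1 at 5.65, and the other 8 lay between 3.83 and 5.12. The cKO groups differed from controls by 2.03 on SD and 2.48 on HFD (SE 1.61 in each; adjusted p of 0.984 and 0.747). Hspa1a has a near-identical copy, Hspa1b, so its probe is uncertain as to which gene it reads. Without cKO HFD 2, the differences on HFD were 0.77 for Hspa1a, 0.71 for Hsph1 (adjusted p = 0.812), 0.27 for Dnajb1, -0.16 for Hspb1 and -0.089 for Stip1, and the last 2 had been 0.58 and 0.45 with it. The stress-inducible list had a median of 0.45 on HFD, with 12 differences above 0, and of -0.039 on SD, with 5 above and 8 below. Over all genes 47.34% were above 0 on HFD and 46.44% on SD. The cause of the high array was not tested.

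**Figure D4:**
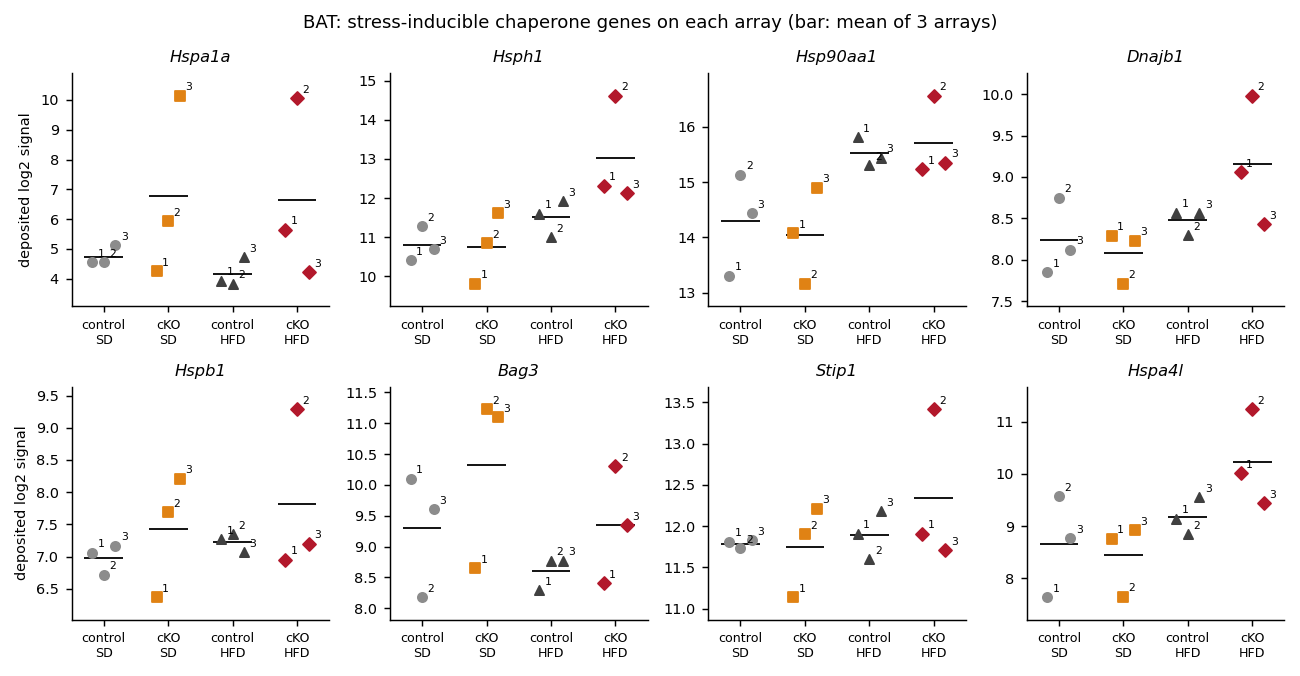
Deposited log2 signal (vertical axis) of 8 stress-inducible members on each BAT array, by group (horizontal axis); numbers are the replicate numbers of the labels and bars are means of 3 arrays. Array 2 of cKO on HFD is the highest of its group in every panel, and Hspa1a has its other high value on array 3 of cKO on SD (10.14, beside 10.06 there).

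In the comparison of diets in BAT, 0 of 75 members passed in controls (background 0.742% of 17800 genes) and 0 in cKO (background 0%) in limma. At an unadjusted p under 0.05 there were 11 members in controls and 23 in cKO, of 4017 and 3997 genes. These counts depended on the fit: with array weights 49 members (65.3%) and 47.4% of all genes passed in cKO, leave-outs gave up to 5 in cKO (without cKO SD 1), and 13 passed in controls without control SD 2. For the leave-outs the share of all genes is not given here, and their counts are no result about the members. Arrays of the diets did not overlap for 10 members in controls, 13.3% beside 24.7% of all genes, of which 7 were higher on HFD (Bag5, Cct2, Cct3, Cct5, Dnajc24, Hsp90aa1 and Hspa12b) and Dnajc8, Dnajc17 and Dnajc21 lower. In cKO they did not overlap for 30, 40% beside 28.5% of all genes, 18 higher and 12 lower. The higher ones were led by Hsph1 (2.26), Hspa4l (1.79), Hsp90aa1 (1.67) and the exchange factor Bag1 (1.15), and the lower ones by Hspb7 (-7.21), Hspb3 (-2.32) and Dnajc27 (-1.97). Hspb3 was near the filter on the HFD arrays. Without array cKO HFD 2 the differences were 1.46 for Hsph1, 1.28 for Hspa4l and 1.25 for Hsp90aa1.

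Averaged over genotypes, a comparison added after seeing the data, 16 of 75 members passed, 21.3% beside a background of 17.6% of all genes: 9 rose on HFD and 7 fell. The share of members is near that of all genes and is no result about chaperones as a group. The median difference was 0.15 over the members and 0.041 over all genes. The count depended on the arrays: it was 0 with the skeletal muscle score as a covariate, 0 without the 2 arrays of lowest Ucp1 (control SD 1 and cKO SD 2), and from 1 to 38 when any 1 of the 12 arrays was left out, each of which moved it by over 1.5 times. It was 38 without control SD 2 and 27 without cKO SD 1. The share of all genes called in these refits is not given here, so the counts are no result about the members.

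Cct3, a CCT subunit, had the highest statistic. It read 10.10, 10.85 and 10.15 in controls and 10.24, 9.86 and 10.09 in cKO mice on SD. On HFD it read 11.29, 11.11 and 11.37 in controls and 10.84, 11.22 and 10.81 in cKO mice. The diets did not overlap within either genotype. Averaged over genotypes Cct3 rose by 0.89 (SE 0.146, adjusted p = 0.0126); the call held in all 12 leave-outs but not with the muscle covariate (adjusted p = 0.222) or without the 2 arrays of lowest Ucp1 (adjusted p = 0.0667). All 9 CCT members were above 0, with a median of 0.24, and Cct5 (0.39, adjusted p = 0.0333) and Cct2 (0.34, adjusted p = 0.0498) also rose. In the same comparison 57.35% of all genes were above 0.

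Among HSP90 and its partners, Hsp90aa1 read 13.31, 15.13 and 14.44, then 14.07, 13.16 and 14.90 on SD, controls first, and 15.81, 15.30 and 15.44, then 15.23, 16.56 and 15.35 on HFD. All HFD arrays lay above all SD arrays, and it rose by 1.45 (adjusted p = 0.0370). Ptges3 rose by 0.47 (adjusted p = 0.0442). Of the HSP70 proteins and their exchange factors, Bag1 read 12.03, 12.99 and 12.53, then 12.79, 12.05 and 12.47 on SD, and 12.86, 13.00 and 13.72, then 13.61, 13.55 and 13.59 on HFD, and rose by 0.91 (adjusted p = 0.0232). Hspa13, a microsome-associated HSP70, rose by 0.50 (adjusted p = 0.0253) and Hspa12b by 0.42 (adjusted p = 0.0410). Hspa12b rested on the controls, with 6.03, 6.40 and 5.92 on SD and 6.55, 7.09 and 6.81 on HFD, while in cKO mice 5.83, 5.96 and 5.69 overlapped with 5.81, 6.03 and 6.08; its interaction, -0.55, did not pass. Hspa13 rested on the cKO mice, with 8.32, 8.10 and 7.74 on SD and 8.76, 8.99 and 8.91 on HFD, while the controls overlapped at 8.50, 8.29 and 8.33 against 8.56, 8.28 and 8.75; the interaction, 0.68, did not pass. Dnajc13 rose by 0.32 (adjusted p = 0.0401).

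In each of the 7 that fell, the lowest SD array was control SD 2, the SD array with low muscle markers. Hspb7 fell by 6.80 (SE 1.75, adjusted p = 0.0320), Hspb3 by 1.86 (adjusted p = 0.0374) and Hspb2 by 1.26 (adjusted p = 0.0431). On HFD Hspb3 read 3.74 to 4.35, around the filter of 4.0535, and it passed that filter through its SD arrays. The size of its fall is therefore uncertain, and its call adds no support of its own. Hspb7 was also near the filter on control HFD 1 and 2 (4.05 and 3.87) and cKO HFD 1 (3.93). With the muscle covariate the Hspb7 difference was -1.62 (adjusted p = 0.292). Dnajc21, a J protein of ribosome assembly, fell by 1.18 (adjusted p = 0.0233) from 11.06, 9.39 and 10.37, then 10.12, 11.05 and 10.51 on SD, to 9.08, 9.19 and 9.02, then 9.69, 9.18 and 9.27 on HFD. Dnajb5 fell by 0.77 (adjusted p = 0.0277), Hspa1l, a testis HSP70 measured near background, by 0.60 (adjusted p = 0.0432) and Dnajc8, a spliceosome-associated J protein, by 0.50 (adjusted p = 0.0354).

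Several large differences missed the threshold, with wide spread between arrays. Dnajc15 was 1.58 (SE 0.614, adjusted p = 0.0970), Hsph1 1.49 (adjusted p = 0.0542), Hspd1 1.01 (adjusted p = 0.0903) and Hspa9 0.86 (adjusted p = 0.0888). Hspb6 stood at -1.78 (adjusted p = 0.0617), Hsf2 at -1.01 (adjusted p = 0.0906) and Bag3 at -0.83 (adjusted p = 0.288).

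**Figure D5:**
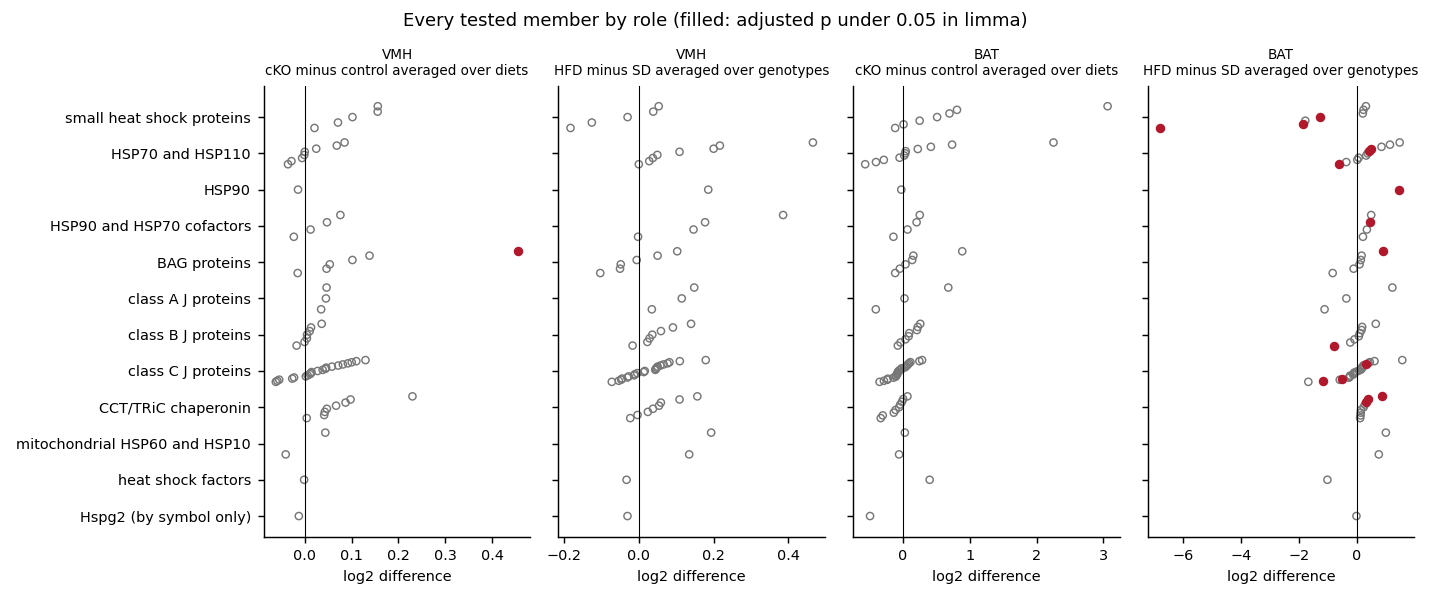
Log2 difference (horizontal axis) of every tested member by role (vertical axis), for cKO minus control averaged over diets and HFD minus SD averaged over genotypes, in VMH (67 members) and BAT (75 members); filled points have an adjusted p under 0.05. The scales differ between panels: the filled VMH point is Bag3 at 0.46, and in BAT 9 filled points lie above 0 and 7 below on HFD.

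Other genes of the pathway were taken from lists outside the symbol rule. In VMH 0 of 34 cofactors, 0 of 11 HSF1-responsive genes, 0 of 3 other HSF genes and 0 of 2 cold-inducible RNA binding proteins passed in any comparison in limma. The smallest adjusted p for diet averaged over genotypes were those of Ppid, a cyclophilin of HSP90 complexes (0.25, adjusted p = 0.122), and Chordc1, an HSP90 cofactor (0.49, adjusted p = 0.240). The cold-inducible Cirbp and Rbm3 were at -0.23 (adjusted p = 0.208) and -0.31 (adjusted p = 0.225). In BAT, averaged over genotypes, 5 of 34 cofactors and 4 of 16 HSF1-responsive genes passed, beside 17.6% of all genes. Among cofactors, Trap1, the mitochondrial HSP90 (1.28), the auxilin Gak (0.92) and the HSF1-binding Hsbp1 (0.53) rose, and Fkbp5, a glucocorticoid-responsive immunophilin (-0.78), and the prefoldin Vbp1 (-1.29) fell. Of the HSF1-responsive genes Hmox1 (heme oxygenase, 1.61, adjusted p = 0.0101), Zfand2a (0.99, adjusted p = 0.00971) and Serpinh1, the collagen chaperone HSP47 (0.80, adjusted p = 0.0156), rose, and Ranbp2 fell by 0.49 (adjusted p = 0.0190). Cirbp fell by 0.49 (adjusted p = 0.0253). In controls alone Hmox1 rose by 2.15 (adjusted p = 0.0384).

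The members that were not tested had low signals. In VMH these were 17: Cct6b, Hspa12b, Hspa1a, Hspa1l, Hspa2, Dnajb3, Dnajb7, Dnajb8, Dnajb13, Dnajc5b, Dnajc5g, Dnajc22, Dnajc25, Dnajc30, Hspb3, Hspb7 and Hspb9. In BAT they were 9: Hspa2, Dnajb3, Dnajb8, Dnajb13, Dnajc5b, Dnajc5g, Dnajc6, Dnajc30 and Hspb9. Hspa12b, Hspb3 and Hspb7 were therefore measured in BAT only, and Dnajc6, the auxilin of nerve terminals, in VMH only.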

How the data were processed

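Total RNA of VMH and BAT was measured on 24 Affymetrix arrays. The authors deposited log2 signals. Per the submitters' processing notes, PLIER 2.0 and Affymetrix Expression Console 1.1.1 were used, in roles not stated; the normalization is not given in the sources used here, nor is the build. The values lie between 2.1167 and 19.931 and were used as deposited, with no further normalization; 0 columns were left unused.

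Of 72688 features, 6732 were controls; 30604 others had 1 symbol in the platform annotation, 2146 several and 33206 none. Symbols of 827 features were updated through a mouse gene table of GRCm38.p6. The brightest feature of a gene within a tissue stood for it, and a gene was tested when its mean over 12 arrays reached the median over all features (5.3885 in VMH, 4.0535 in BAT), which left 16738 and 17800 genes. A fold is 2 to the power of a log2 difference.

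Group means were fitted with limma 3.58.1 (R 4.3.3) within a tissue (12 arrays, equal weights, no block), two-sided, with Benjamini-Hochberg adjustment over all genes tested and a threshold of 0.05. The fit was also run on simulated arrays with independent noise per gene, and the outcome is not given here. Those arrays held no shared differences in tissue makeup, so they do not bear on the spread of the BAT arrays. Named genes were members past the threshold, the 3 highest and 3 lowest statistics of a comparison, 10 stress-inducible genes and factors and, from other lists, those that passed or the 2 of smallest p; others were chosen after their values were seen. The rule also named the brightest and dimmest member of each role, but levels of different probes were not set against each other. Members and lists were chosen with earlier results of these data known. No array pair was identical. The labels give no pairing by replicate number, and arrays were not paired. Same-numbered arrays correlated in their deviations at -0.342 to 0.282 in VMH (median -0.0094) and -0.769 to 0.387 in BAT (median 0.091). Differently numbered arrays of different groups correlated at -0.252 to 0.335 in VMH (median 0.007) and -0.450 to 0.809 in BAT (median -0.021). These values cannot exclude a shared batch. Protein sequences were not used here. Alternatives were leaving out each array, array weights, a replicate block, fits to only the groups compared, no filter, quantile normalization, a robust prior with trend, averaging a gene's features, 16 added to the linear signal and, in BAT, a muscle score as covariate; those of diet averaged over genotypes, and BAT without the 2 arrays of lowest Ucp1, were added after seeing the data.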

Additional observations from a re-analysis of the deposited data

Results flagged for a closer look

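Cct4, Dnajb5 and Dnajc13 each moved in opposite directions in VMH and BAT with no overlap between arrays in either tissue; these differences between tissues were not tested. For cKO minus control on SD, Cct4 differed by 0.0774 in VMH and -0.137 in BAT. In BAT its highest cKO array (8.6207) all but touched its lowest control array (8.621). Arrays did not overlap in that comparison for 9.94% of all genes in VMH and 7.21% in BAT. For HFD minus SD in cKO, Dnajb5 differed by 0.0688 in VMH and -0.893 in BAT, and Dnajc13 by -0.128 in VMH and 0.437 in BAT. There the arrays did not overlap for 17.5% of all genes in VMH and 28.5% in BAT. Dnajb5 was high in the BAT arrays with high muscle markers. No value passed the threshold.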

How the results depend on the processing

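No count or named difference past the threshold changed direction under any alternative. Over all alternatives, 256 recomputed counts of members stayed within 1.5 times and 32 did not; of recomputed values of single members, 1724 kept their side of the threshold, 194 lost a call and 20 gained one. The cause was not tested. In VMH, array weights gave 1 member for cKO on HFD (0.699% of all genes), and for cKO averaged over diets the count was 0 to 1 over the leave-outs. In BAT, array weights gave 2 for cKO on HFD (0.803% of all genes) and 49 for HFD in cKO (47.4% of all genes there); leave-outs gave 0 to 13 for HFD in controls (13 without control SD 2) and 0 to 5 for HFD in cKO (5 without cKO SD 1, 4 without control SD 2). For HFD averaged over genotypes in BAT the count was 8 with no filter, 26 with array weights (30.8% of all genes), 0 with the muscle covariate, 0 without the 2 arrays of lowest Ucp1 and 1 to 38 over the leave-outs. Because the labels give no pairing by number, the fit with a replicate block is given only here. That fit gave 0 for cKO averaged over diets in VMH (Bag3 adjusted p = 0.0682 in limma) and 6 for HFD averaged over genotypes in BAT. Fits to only the groups compared could not be run for averaged comparisons and the interaction. Counts given here without a share of all genes are no result about chaperones as a group.

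With 3 arrays a group, differences are imprecise, most of all in BAT. Hspa8 at the ceiling, Hspa1a near background and Hspb3 near the filter in BAT on HFD are poorly measured.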
